A study of Mus musculus with 9 samples.

Results

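Probe sets for the ligands and receptors of the FGF, PDGF, VEGF, angiopoietin and HGF families were followed in OB-6 cells over the first hour of parathyroid hormone (PTH). Members are the probe sets whose single gene symbol starts with Fgf, Pdgf, Vegf or Angpt or equals Hgf, Met, Kdr, Flt1, Flt4, Nrp1 or Nrp2. The rule took 40 of 8252 named genes, measured by 52 of 12488 probe sets. Nrp2 was not among them. OB-6 is a mouse osteoblastic line from bone marrow, and total RNA was hybridised to 1-colour arrays at 0 min (basal level), 30 min and 60 min of PTH treatment, with 3 arrays per time lettered a, b and c. The labels name no genetic change and give neither the dose of PTH nor cultures kept for 30 or 60 min without it, so each change is against the start of treatment. Nor do they say that the 3 arrays of a time stand for 3 separate cultures. The p-values therefore measure the spread between arrays only, and that spread may be technical.

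FGF, PDGF, VEGF, angiopoietin and HGF ligands are secreted proteins that bring receptor tyrosine kinases together at the cell surface, and the activated receptors pass the signal on through adaptors to the Ras, MAP kinase and phosphoinositide kinase pathways. FGFs also need heparan sulphate chains as coreceptors. In bone, FGF and PDGF receptors act on proliferation and differentiation of osteoblast precursors, while VEGF and angiopoietins are signals that osteoblastic cells send to blood vessels.

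The 9 arrays had nearly equal trimmed mean intensities, from 249.5 to 250, and the median correlation of an array with the rest, over 7884 tested probe sets, went from 0.938 for 60 min replicate b to 0.967. Of 11 osteoblast markers with a probe set 9 passed the filter for dim probe sets, which asked for an intensity above 44.69 on at least 3 of the 9 arrays. They included Col1a1, Col1a2, Bgn and Sparc, with means of 3389 to 5386 at 0 min. The means of these and of Alpl were higher at 60 min, while others were lower. Postn went from 3900 to 1708, Omd from 2083 to 545, Ibsp from 117 to 66.6 and Dmp1 from 57.0 to 32.8. By the limma test 1 of the 9 had risen at 60 min and 2 had fallen, where 13.1% of all tested probe sets changed and 8.73% fell. The probe set of the PTH receptor, Pth1r, did not pass, with a mean of 15.7 at 0 min. Endothelial markers were mostly below the filter. Of 9 measured only Sox17 and Sox18 passed, and Pecam1, Cdh5, Tek, Tie1, Vwf, Emcn and Cldn5 had means of 4.67 to 13.4 at 0 min. The 9 summed to 142 to 171 at 0 min, 158 to 172 at 30 min and 153 to 207 at 60 min. Of the markers of pericytes and smooth muscle, macrophages and blood, adipocytes and chondrocytes 3 of 7, 3 of 9, 3 of 5 and 1 of 5 passed the filter. Some were bright at 0 min, with means of 2372 for Acta2, 407 for Tagln, 976 for Cd14, 387 for Lep and 182 for Col9a1. By the limma test 0 of these markers changed at 30 or 60 min, where 0.939% and 13.1% of all tested probe sets did. In RNA from whole cultures, fewer cells of a type and less RNA per cell cannot be told apart.

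Of the 52 probe sets 24 passed the filter, from 17 genes. The other 28 did not reach an intensity of 44.69 on any array, with values from 0.900 to 39.1. The families differed in how much could be measured. Both PDGF ligands, both PDGF receptors, 3 of 4 VEGF ligands, 4 of 6 genes named for FGF receptors or their binding partners, 3 of 17 FGF ligands, 1 of 4 genes of VEGF receptors and neuropilins and 2 of 3 angiopoietin genes had a tested probe set, and neither Hgf nor Met had one. Among the members 2 ligands, Fgf7 and Angpt1, fell by 60 min, and 0 members rose past the threshold at either time. Changes are given as differences in log2(intensity + 11.8), with the standard error (SE) of limma's fit to all 9 arrays, and adjusted p-values are Benjamini-Hochberg values over all 7884 probe sets with a threshold of 0.05. On this scale the change of a dim probe set is understated.

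**Figure D1:**
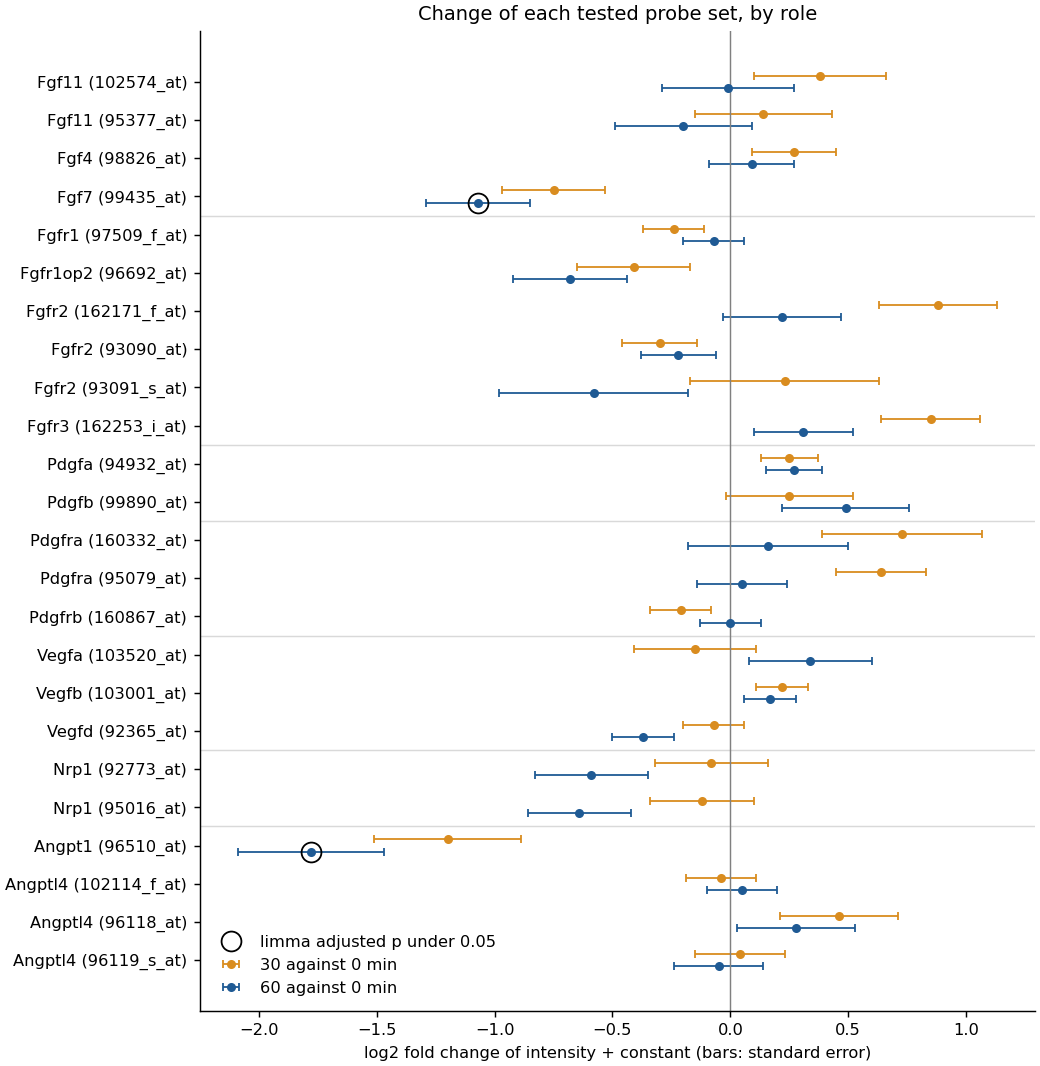
The horizontal axis gives the log2 fold change of each of the 24 tested probe sets, grouped by role, at 30 min (orange) and 60 min (blue) against 0 min, with bars for the SE. Circles mark a limma adjusted p under 0.05, which Fgf7 (-1.07) and Angpt1 (-1.78) had at 60 min.

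Fgf7, also known as keratinocyte growth factor, is made by mesenchymal cells and binds an isoform of Fgfr2 found mainly in epithelia. Its probe set 99435_at read 2790, 2892 and 3034 on the arrays at 0 min, 2322, 1311 and 1666 at 30 min, and 1727, 995 and 1504 at 60 min, in the order a, b, c. All arrays at 30 and at 60 min lay below all those at 0 min, and those at 30 and 60 min overlapped. The mean went from 2905 ± 123 (SD, n = 3) to 1766 ± 513 and then 1409 ± 375. Fgf7 fell by 1.07 on the log2 scale (SE 0.22) at 60 min, 2.11-fold, with a limma adjusted p of 0.0164. At 30 min it stood at -0.75 (SE 0.22), with a limma adjusted p of 0.127, and 60 against 30 min at -0.32 (SE 0.22, limma adjusted p = 0.627). The limma F test over the 3 times gave an adjusted p of 0.0428.

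The call for Fgf7 was lost without any 1 of the arrays of the starting group, as were most calls of the whole array. Leaving out 0 min replicate a, b or c left 0.977%, 1.36% and 3.29% of all tested probe sets changed at 60 min, against 13.1% in the main fit. The limma adjusted p at 60 min was 0.0668 when 0 min replicate a was left out, 0.0655 for b and 0.0592 for c, over a range of 0.0041 to 0.0668 in 18 alternative fits, in which the change lay between -1.24 and -0.844. Replicate b was the lowest of its group at 30 and at 60 min, and without 60 min replicate b the change at 60 min was -0.844 with a limma adjusted p of 0.0305.

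The 250 bases before the start of Fgf7 are shown because it is one of the 2 members that changed. They come from RefSeq's mouse assembly GRCm38.p6, chr2:126034408-126034657 on the + strand, 5′ to 3′. They were searched on both strands for a cAMP response element (CRE, TGACGTCA), its half-site (TGACG, which a full CRE also contains), an AP-1 site (TGANTCA), an Egr site (GCGTGGGCG), a Runx site (TGTGGT), the core of a hypoxia response element (ACGTG), the TATA box (TATAAA) and the CArG box, and 0 matches were found, so no base is in capitals.
Fgf7: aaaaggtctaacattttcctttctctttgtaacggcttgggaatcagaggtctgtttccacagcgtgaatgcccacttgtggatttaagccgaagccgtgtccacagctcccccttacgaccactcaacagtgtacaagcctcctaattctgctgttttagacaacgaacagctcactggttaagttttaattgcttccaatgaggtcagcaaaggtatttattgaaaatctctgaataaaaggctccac

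Of 32851 windows of this kind in the table, 1.55% hold a CRE, 17.8% its half-site, 6.75% an AP-1 site, 0.536% an Egr site, 14.0% a Runx site, 16.6% the hypoxia core, 12.4% a TATA box and 1.47% a CArG box. Of the 17 tested genes 12 have a window, and Angpt1, Angptl4, Fgfr1, Pdgfb and Pdgfrb have none in the table used here. Among these the CRE half-site was found for Pdgfa, Pdgfra and Vegfa, the Runx site for Fgf11 and Vegfd, the hypoxia core for Vegfa and the TATA box for Vegfd, while the CRE, AP-1, Egr and CArG letters were in none of the 12. A match is a description of the letters in the window.

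The other FGF ligands with tested probe sets were Fgf4, a ligand known from early embryos and limb buds, and Fgf11, which belongs to the FGF homologous factors that stay inside the cell. Fgf4 read 167, 221 and 187 at 0 min, 226, 211 and 264 at 30 min and 189, 266 and 166 at 60 min, and the groups overlapped. Its log2 fold changes were 0.27 (SE 0.18) at 30 min and 0.09 (SE 0.18) at 60 min, with 95% confidence intervals of -0.13 to 0.67 and -0.32 to 0.49. One probe set of Fgf11, 102574_at, read 64.2, 40.1 and 81.3 at 0 min, 85.0, 66.0 and 94.9 at 30 min and 61.0, 83.2 and 40.6 at 60 min, again with overlap, and stood at 0.38 (SE 0.28) and -0.01 (SE 0.28). The second, 95377_at, averaged 61.4 ± 19.5, 67.0 ± 3.76 and 53.3 ± 21.4 (SD, n = 3 each), with changes of 0.14 and -0.20. Limma adjusted p for these 3 probe sets lay at 0.451 or above at 30 min and 0.678 or above at 60 min.

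The 14 FGF ligand probe sets below the filter were those of Fgf1, Fgf2, Fgf3, Fgf5, Fgf6, Fgf8, Fgf9, Fgf10, Fgf12, Fgf13, Fgf14, Fgf15, Fgf17 and Fgf18, with intensities from 0.900 to 36.2. Among them Fgf2, a mitogen known to be made by osteoblastic cells, read 1.60 to 20.3 over the 9 arrays. Fgf18, which acts on cartilage and bone growth, read 3.30 to 36.2. No change is given for these 14 probe sets, which were not tested.

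Among the FGF receptors the probe sets did not move as one. Fgfr3, a receptor known for restraining growth plate cartilage, read 93.1, 127 and 108 at 0 min, 199, 219 and 198 at 30 min and 117, 202 and 109 at 60 min on 162253_i_at. All arrays at 30 min lay above those at 0 min, whereas at 60 min replicate b alone stayed near the values at 30 min. The change at 30 min was 0.85 (SE 0.21), 1.80-fold, with a limma adjusted p of 0.0826, the lowest among the members for that comparison, and at 60 min it was 0.31 (SE 0.21, limma adjusted p = 0.333). Without 60 min replicate b the limma adjusted p at 30 min was 0.0149 and the change at 60 min 0.0542. A second Fgfr3 probe set, 160919_r_at, was below the filter, with means of 20.2, 20.8 and 11.9.

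Fgfr2, whose isoforms take up Fgf7 in epithelia and other FGFs in mesenchyme, had 3 probe sets with different courses. On 93090_at the means were 703 ± 76.7, 567 ± 39.0 and 608 ± 131 (SD, n = 3 each) at 0, 30 and 60 min, with changes of -0.30 (SE 0.16) and -0.22 (SE 0.16). On 93091_s_at they were 183 ± 23.5, 217 ± 30.9 and 138 ± 81.9, with changes of 0.23 (SE 0.40) and -0.58 (SE 0.40). The spread at 60 min came from 60 min replicate b, which read 44.0 against 190 and 181 on replicates a and c, and with it left out the change at 60 min was 0.024 on this probe set and -0.0707 on 93090_at. The last, 162171_f_at, read 22.5, 18.9 and 23.4 at 0 min, 51.3, 44.9 and 53.1 at 30 min and 30.8, 30.1 and 20.7 at 60 min. It passed the filter only through its 3 arrays at 30 min, so their standing above the others is tied to its being tested at all. Its change at 30 min was 0.88 (SE 0.25) with a limma adjusted p of 0.114, and 0.0331 without a variance trend in the fit.

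Fgfr1, the main FGF receptor of mesenchymal cells, was measured by 1 probe set, 97509_f_at, at 641 ± 41.6, 540 ± 32.0 and 616 ± 103 (SD, n = 3 each). Its arrays at 30 min lay below those at 0 min, with a change of -0.24 (SE 0.13, limma adjusted p = 0.357), and at 60 min the change was -0.07 (SE 0.13), with a 95% confidence interval of -0.36 to 0.22. Fgfr1op2, which enters by its name and encodes a cytoplasmic protein first met as a fusion partner of Fgfr1, had means of 107 ± 12.3, 77.6 ± 6.83 and 64.9 ± 24.4 and lay below 0 min on all arrays of both later times. It stood at -0.41 (SE 0.24) at 30 min and -0.68 (SE 0.24, limma adjusted p = 0.0775) at 60 min. Without 60 min replicate c the adjusted p was 0.0486. Without 60 min replicate b, which read 38.6, the change was -0.408, with an adjusted p of 0.19. Fgfr4 and the FGF carrier protein gene Fgfbp1 were below the filter at 2.70 to 11.9.

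**Figure D2:**
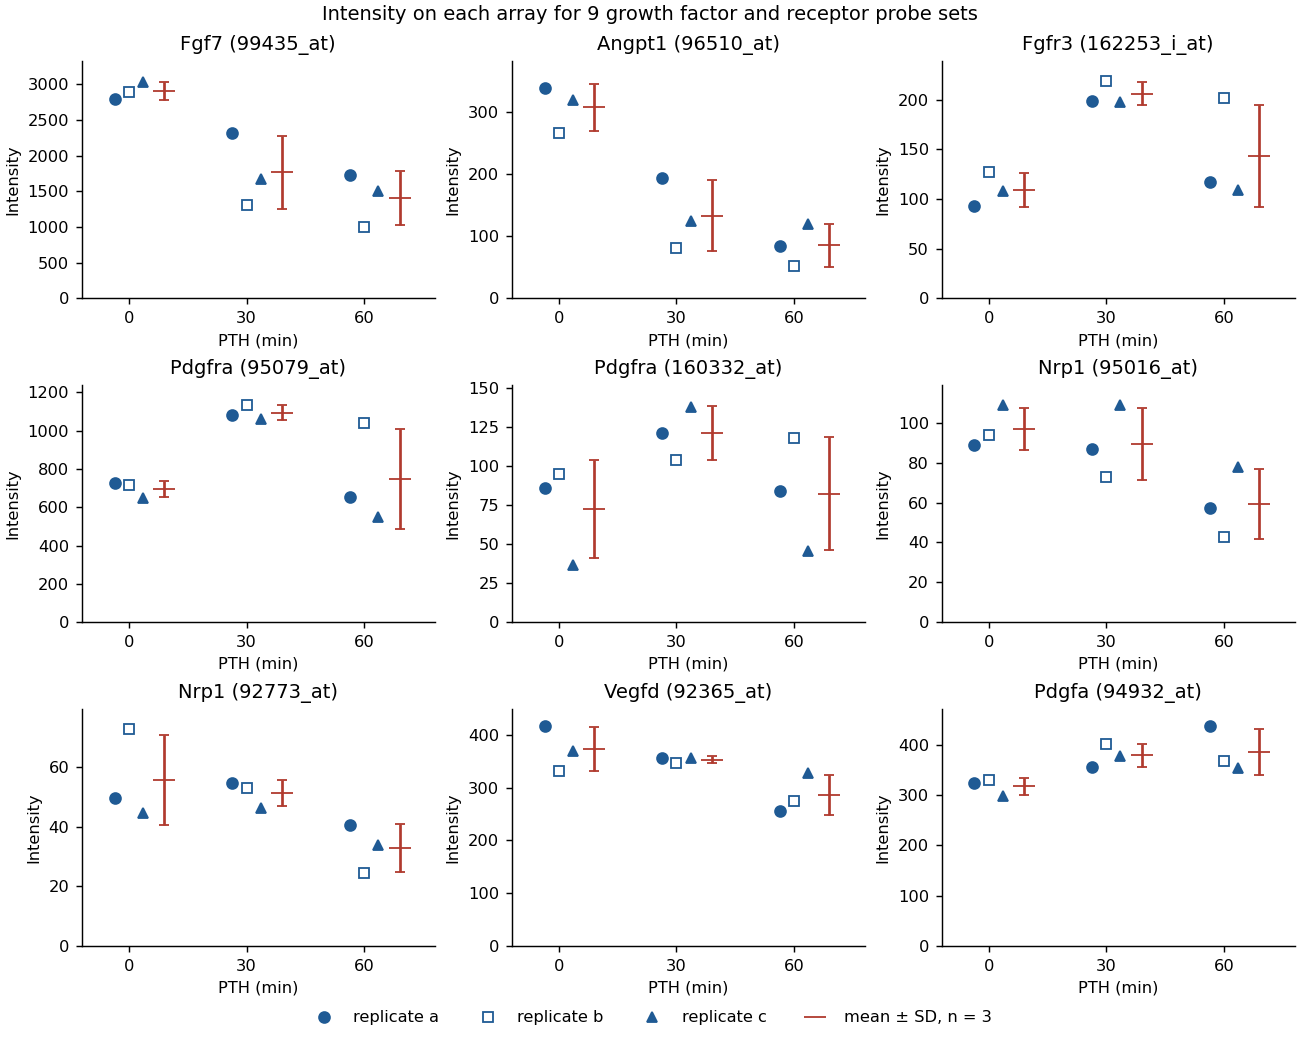
Each panel shows the intensity of 1 probe set on the 9 arrays against the time of PTH, with a marker shape for each replicate letter and a red bar for the mean ± SD of 3 arrays. Fgf7 and Angpt1 at 30 and 60 min lie below all their arrays at 0 min, and both Pdgfra probe sets and Fgfr3 lie above them at 30 min only.

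PDGF ligands were measured for both genes. Pdgfa, which binds Pdgfra and is known as a mitogen for osteoblast precursors, read 323, 330 and 298 at 0 min, 356, 402 and 378 at 30 min and 438, 367 and 353 at 60 min. All arrays at both later times lay above those at 0 min. The changes were small, at 0.25 (SE 0.12, limma adjusted p = 0.313) and 0.27 (SE 0.12, limma adjusted p = 0.148). Pdgfb, which binds both PDGF receptors, read 37.3, 46.4 and 26.0 at 0 min, 33.9, 43.9 and 59.8 at 30 min and 43.2, 51.8 and 74.2 at 60 min. Its groups overlapped, 4 of its 9 arrays were above 44.69, and it stood at 0.25 (SE 0.27) and 0.49 (SE 0.27, limma adjusted p = 0.243).

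Pdgfra, the PDGF receptor of mesenchymal progenitors, was higher at 30 min on 2 probe sets. The first, 95079_at, read 727, 716 and 649 at 0 min, 1080, 1137 and 1062 at 30 min and 655, 1043 and 547 at 60 min. The arrays at 30 min lay above all others, and at 60 min replicates a and c were within or below the range at 0 min while replicate b was not. The second, 160332_at, read 86.1, 94.9 and 36.8, then 121, 104 and 138, then 83.8, 118 and 45.2, with the same order of arrays at 60 min. The change at 30 min was 0.64 (SE 0.19), 1.56-fold, on 95079_at and 0.73 (SE 0.34) on 160332_at, with limma adjusted p of 0.131 and 0.295. At 60 min they stood at 0.05 (SE 0.19) and 0.16 (SE 0.34), with 95% confidence intervals of -0.38 to 0.47 and -0.60 to 0.91. Without 60 min replicate b the value of 95079_at at 60 min turned to -0.214 (limma adjusted p = 0.261) and that of 160332_at to -0.112 (limma adjusted p = 0.876).

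In 60 against 30 min, 95079_at stood at -0.59 (SE 0.19, limma adjusted p = 0.529). Without 60 min replicate b this became -0.855 with a limma adjusted p of 0.0224, and 30 against 0 min had an adjusted p of 0.0116. Another probe set, 161202_r_at, was below the filter, with 9.80 as its highest value. Pdgfrb, the other PDGF receptor, read 201, 247 and 229 at 0 min, 182, 181 and 216 at 30 min and 233, 229 and 211 at 60 min, with overlap between the times and changes of -0.21 (SE 0.13) at 30 min and 0.00 at 60 min and a 95% confidence interval of -0.29 to 0.28 for the latter.

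The 250 bases before the start of Pdgfra are shown as the member with 2 probe sets higher at 30 min, a choice made after its values were seen. They are from the same assembly, chr5:75152001-75152250 on the + strand, 5′ to 3′, with the CRE half-site, here on the other strand as CGTCA, in capitals. It lies 218 to 214 bases before the start, and 0 matches to the other motifs were found.
Pdgfra: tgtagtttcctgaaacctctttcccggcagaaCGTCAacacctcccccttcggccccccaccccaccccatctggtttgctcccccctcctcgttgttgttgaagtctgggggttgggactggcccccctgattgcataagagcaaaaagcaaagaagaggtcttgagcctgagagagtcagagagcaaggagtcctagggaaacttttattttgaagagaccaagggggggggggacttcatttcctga

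Of the VEGF ligands, Vegfa, the main growth signal for blood vessels, was near the filter. It averaged 57.2 ± 21.2, 49.4 ± 14.9 and 72.8 ± 5.03 (SD, n = 3 each), with 6 of 9 arrays above 44.69. Its changes were -0.15 (SE 0.26) at 30 min and 0.34 (SE 0.26, limma adjusted p = 0.402) at 60 min, with a 95% confidence interval of -0.23 to 0.91 for the latter, which spans 0. All 3 arrays at 60 min lay above those at 30 min, at a change of 0.49 (SE 0.26, limma adjusted p = 0.571).

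Vegfb, a ligand of Flt1, read 366, 428 and 375 at 0 min, 469, 439 and 458 at 30 min and 433, 456 and 432 at 60 min, above the start on all 6 later arrays. The changes were 0.22 (SE 0.11, limma adjusted p = 0.311) and 0.17 (SE 0.11, limma adjusted p = 0.290). Vegfd, a ligand of Flt4 known for lymphatic vessels, read 416, 332 and 369 at 0 min, 357, 346 and 357 at 30 min and 255, 275 and 328 at 60 min. The arrays at 60 min lay below all others, with a change of -0.37 (SE 0.13) and a limma adjusted p of 0.0823, and at 30 min the change was -0.07. Vegfc, the closest relative of Vegfd, was below the filter at 1.90 to 8.40.

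The VEGF receptor kinases Flt1, Kdr and Flt4 had 5 probe sets, all below the filter, with intensities from 5.50 to 39.1. Kdr, the main VEGF receptor of endothelial cells, had means of 11.1, 9.87 and 31.8, and its 3 arrays at 60 min lay above those of the other times. The arrays at 60 min also lay above those at 0 min for Flt4 on 104416_at, with means of 8.27 and 25.6. The same held for Flt1 on 98453_at, with means of 9.94 and 16.6, and the arrays overlapped on the other probe set of each gene. Arrays at 60 min wholly above those at 0 min were not particular to the receptors. They were also seen for Fgf1, Fgf5, Fgf9 and Fgf14, likewise below the filter, and for 1580 of 7884 tested probe sets. The summed endothelial markers were 153 to 207 at 60 min and 142 to 171 at 0 min, ranges that overlap. The sum hides opposite courses. Sox17 and Sox18, the brightest at 0 min, had lower means at 60 min, with Sox17 going from 42.6 to 29.5. Tie1, Vwf and Cldn5 were slightly lower. Pecam1 went from 13.4 to 29.4, Cdh5 from 6.07 to 13.3 and Emcn from 5.70 to 16.3, and Tek was higher too. These last genes were below the filter, like the receptors. The part of the endothelial markers in the values of these receptors was not tested.

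Nrp1, a coreceptor shared by VEGF and class III semaphorins, was the one member of this group that could be tested, on 2 probe sets. On 95016_at it read 88.7, 93.8 and 109 at 0 min, 86.7, 72.6 and 109 at 30 min and 57.3, 42.9 and 77.8 at 60 min. On 92773_at it read 49.6, 72.6 and 44.5, then 54.5, 53.0 and 46.1, then 40.4, 24.5 and 33.8. This probe set passed the filter only through arrays at 0 and 30 min. Its standing lower at 60 min is therefore tied to its being tested at all. On both probe sets the arrays at 60 min lay below those at 0 min and replicate b was the lowest. The changes at 60 min were -0.64 (SE 0.22, limma adjusted p = 0.0735) and -0.59 (SE 0.24, limma adjusted p = 0.122). At 30 min they were -0.12 and -0.08. With 60 min replicate b left out the changes at 60 min were -0.465 and -0.443, with adjusted p of 0.201 and 0.308.

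Angpt1, the activating ligand of the endothelial receptor Tek and a product of mesenchymal and osteoblastic cells, had the largest change of the 24 tested probe sets. It read 338, 265 and 319 at 0 min, 194, 81.6 and 125 at 30 min and 84.6, 51.2 and 120 at 60 min. All 6 later arrays lay below those at 0 min, and the arrays at 30 and 60 min overlapped. The mean went from 307 ± 38.1 (SD, n = 3) to 133 ± 56.8 and then 85.1 ± 34.2. Angpt1 fell by 1.78 on the log2 scale (SE 0.31) at 60 min, 3.42-fold, with a limma adjusted p of 0.00958. At 30 min it stood at -1.20 (SE 0.31), with a limma adjusted p of 0.0867, and 60 against 30 min at -0.57 (SE 0.31, limma adjusted p = 0.573). The limma F test over the 3 times gave 0.0260 after adjustment.

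The call of Angpt1 at 60 min was lost without 0 min replicate a, with a limma adjusted p of 0.0561. In that fit 0.977% of all tested probe sets passed, against 13.1% in the main fit. The call remained in the other 17 of 18 alternative fits, and the adjusted p ranged from 0.00207 to 0.0561 over the 18. Without 60 min replicate b, the lowest array of Angpt1, the change was -1.50 with an adjusted p of 0.0193. As with Fgf7, replicate b was the lowest array at 30 min and at 60 min.

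Angpt2, which can block Angpt1 at the same receptor, was below the filter at 16.1 to 29.0. Angptl4, an angiopoietin-like inhibitor of lipoprotein lipase, had 3 tested probe sets. On 96118_at it read 114, 83.8 and 66.5 at 0 min, 118, 122 and 129 at 30 min and 83.5, 166 and 86.9 at 60 min, with all arrays at 30 min above the start and a change there of 0.46 (SE 0.25, limma adjusted p = 0.364). On 102114_f_at it read 261, 246 and 220, then 206, 223 and 284, then 245, 286 and 227, with changes of -0.04 and 0.05 (SE 0.15 each). On 96119_s_at the means were 335 ± 44.5, 348 ± 67.7 and 328 ± 79.3 (SD, n = 3 each), with changes of 0.04 and -0.05 (SE 0.19 each). The 95% confidence intervals at 60 min were -0.28 to 0.39 on 102114_f_at and -0.47 to 0.38 on 96119_s_at. The fourth, 161518_r_at, was below the filter. Hgf, a mitogen for epithelia, and its receptor Met were below it too, at 1.90 to 24.9.

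**Figure D3:**
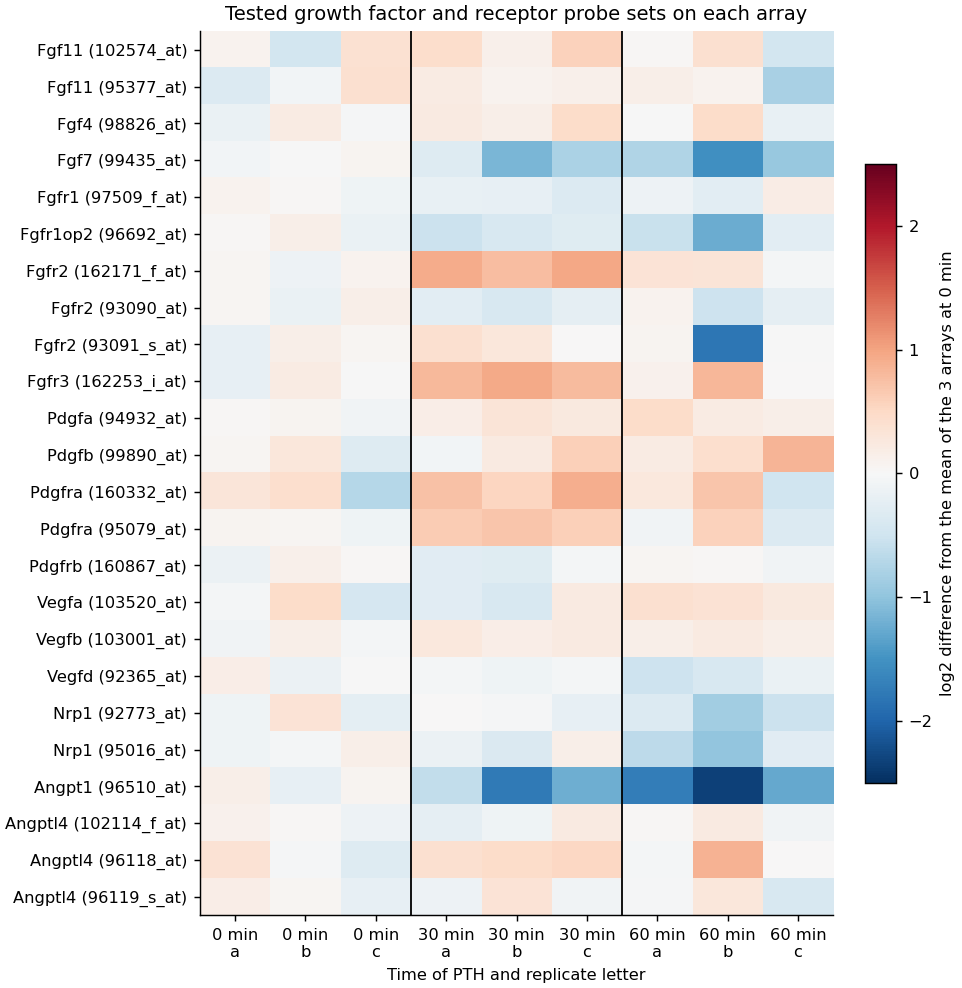
Rows are the 24 tested probe sets and columns the 9 arrays, and colour gives the log2 difference from the mean of the 3 arrays at 0 min, blue for lower and red for higher. Angpt1 and Fgf7 are blue on all 6 later arrays, and 60 min replicate b is the lowest array of both, as well as of Fgfr1op2, Nrp1 and Fgfr2 on 93091_s_at.

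Counted over the tested members, 0 of 24 passed at 30 min, where 0.939% of all tested probe sets did. With limma's unadjusted p, 5 of the 24 were under 0.05, against 17.9% of all. Leaving out 60 min replicate b gave 4 members (Fgf7 and Angpt1 lower, Fgfr3 and Pdgfra higher), where 7.06% of all probe sets passed, and leaving out 30 min replicate a gave 2 (Fgf7 and Angpt1 lower), where 3.89% passed. The 3 arrays lay wholly above those at 0 min for 7 of the 24 (29.2%) and wholly below for 5 (20.8%), against 15.3% each way among all tested. The 7 include the Fgfr2 probe set that passed the filter only through those arrays. The median change was 0.09, against 0.05 for all.

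At 60 min 2 of 24 had fallen, where 8.73% of all tested probe sets fell and 13.1% changed in either direction, so the share of the members was near that of the array. With limma's unadjusted p, 7 of the 24 were under 0.05, against 32.8% of all. Leaving out 0 min replicate a gave 0 members, where 0.977% of all passed, and leaving out b or c of that time gave 1, Angpt1, where 1.36% and 3.29% passed. Leaving out 60 min replicate b turned the sign of small values at 60 min for Fgf4 (to -0.101), Fgfr1 (to 0.0346) and Angptl4 (to -0.0137 on 96118_at and -0.0355 on 102114_f_at). The arrays lay wholly above those at 0 min for 2 members (8.33%) and wholly below for 6 (25.0%), against 20% and 20.7% of all. The 6 include Nrp1 on 92773_at, which passed the filter only through arrays at 0 and 30 min. The median change was -0.01, against 0.03 for all, and turned to 0.06 against 0.10 with arrays scaled to their 75th percentile and to 0.07 against 0.08 with quantile normalization. In the F test over the 3 times the 2 members compared with 4.64% of all.

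Between 30 and 60 min 0 of 24 members passed, as did 0.0254% of all tested probe sets, with 5 members at an unadjusted limma p under 0.05, against 9.07% of all. The later arrays lay wholly above the earlier for 1 member, Vegfa (4.17%), and wholly below for 4 (16.7%), against 5.06% and 6.49% of all. These 4 were Pdgfra on 95079_at, Fgfr2 on 162171_f_at, Vegfd and Nrp1 on 92773_at. The Fgfr2 probe set was tested only because its arrays at 30 min were above 44.69. The Nrp1 probe set was tested only through arrays at 0 and 30 min. The median change was -0.29, against -0.05 for all. The comparisons share groups of arrays, so the values at 0, 30 and 60 min are not independent of each other.

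The other genes of growth factor receptor signalling were taken as 6 lists, each gene by its brightest probe set. The lists were chosen with earlier results of these data known, so their counts are descriptions and not tests. Among all tested probe sets 0.939% changed at 30 min and 13.1% at 60 min. Of 18 tested transcriptional targets of the MAP kinase pathway 9 rose at 30 min and 9 at 60 min, with 0 falls, and medians of 0.80 and 0.62. Among them Fos stood at 4.05 and 2.06 and Egr1 at 2.74 and 1.99, the largest at 30 min. They were followed by Ier2 at 2.09 and 1.55 and Junb at 1.56 and 1.42. The calls of Fos, Egr1, Ier2 and Junb remained in all 18 alternative fits at each time. Fosl1 stood at 1.03 and 1.33 and Plaur, the urokinase receptor, at 0.81 and 0.59. Of 8 feedback inhibitors 3 rose at both times. Dusp6, the phosphatase that acts on the ERK kinases downstream of FGF receptors, went from 241 ± 18.4 (SD, n = 3) to means of 517 and 504, with log2 fold changes of 1.07 and 1.03 (SE 0.11 each, limma adjusted p = 0.00146 and 0.00166). Dusp1 stood at 1.81 and 0.93 and Errfi1, an inhibitor of the EGF receptor, at 1.34 and 1.50. Spry4, an FGF antagonist inside the cell, did not pass at 0.22 and 0.27. Spred2, a relative of it that restrains Raf, fell by 0.46 at 60 min (limma adjusted p = 0.0431), a call lost in 11 of 18 alternative fits, including both other scalings and those without any 1 of the 0 min arrays (adjusted p up to 0.14). That of Fosl1 at 30 min was lost without 0 min replicates a or b or 30 min replicates b or c, and that of Plaur without any 1 of the 0 min arrays or 30 min replicates b or c, with adjusted p up to 0.129 and 0.15. At 60 min that of Plaur was lost without any 1 of the 0 min arrays, with adjusted p up to 0.0903.

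Of 20 tested genes that relay the signal from the receptor 0 passed at 30 min and 3 fell at 60 min, where 8.73% of all tested probe sets fell. Rasa1, a GTPase activating protein that switches Ras off, went from 425 ± 42.2 to 136 ± 27.7 at 60 min (-1.58, SE 0.24, limma adjusted p = 0.00733), a call that remained in all 18 alternative fits, and stood at -1.14 at 30 min (limma adjusted p = 0.0558). Pik3r1 and Pik3ca, the regulatory and a catalytic subunit of phosphoinositide kinase, stood at -1.30 and -0.95 (limma adjusted p = 0.0120 and 0.0399), and a second Pik3ca probe set at -1.35. At 30 min Pik3r1 was at -0.68 and Pik3ca at -0.69, with adjusted p of 0.174 and 0.208. The call of Pik3r1 was lost without 0 min replicates a or b and that of the brighter Pik3ca probe set in 9 of 18 fits, 6 of them with 1 array left out, with adjusted p up to 0.0571 and 0.131. The median of the list was 0.04.

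Among 15 tested heparan sulphate proteoglycans and their enzymes Sdc2, a syndecan, fell by 0.81 at 60 min (SE 0.19, limma adjusted p = 0.0250) and Gpc1, a glypican, rose by 0.46 (SE 0.11, limma adjusted p = 0.0235). Hif1a, the hypoxia factor that controls Vegfa, was the 1 of 12 genes of ligand processing and control that changed. It fell by 0.79 on its brightest probe set (SE 0.20, limma adjusted p = 0.0293) and stood at -0.71 on the other. The calls of Sdc2, Gpc1 and Hif1a were lost without any 1 of the 0 min arrays, with adjusted p of at most 0.0944, 0.09 and 0.0977, and that of Hif1a also without a filter or a variance trend. Of 15 related ligands and receptors Kitl, the ligand of the receptor kinase Kit, fell from 1475 ± 73.6 to 539 ± 97.3 (SD, n = 3 each) at 60 min, a change of -1.45 (SE 0.22, limma adjusted p = 0.00733) that passed in all 18 alternative fits. At 30 min Kitl was at -1.04 (limma adjusted p = 0.0573). At 30 min 0 members of these 3 lists passed, where 0.939% of all tested probe sets did. At 60 min the counts of these lists were near or below the 13.1% of all tested probe sets that changed.

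**Figure D4:**
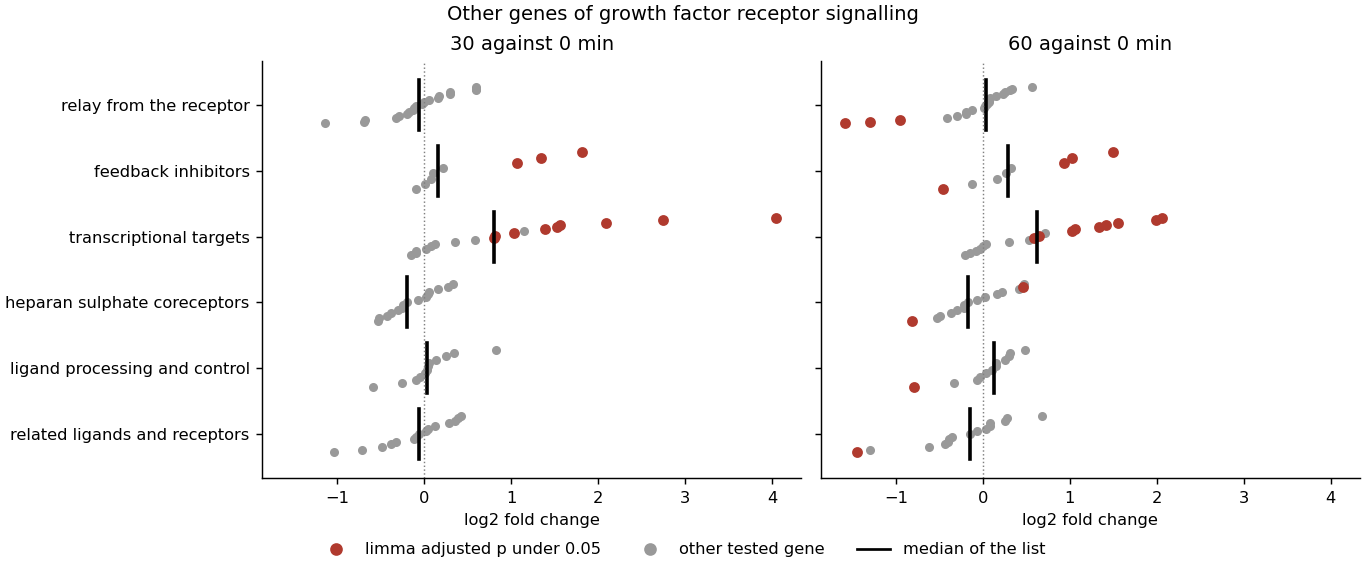
Points are the tested genes of 6 lists of growth factor receptor signalling, with the log2 fold change on the horizontal axis at 30 min (left) and 60 min (right), red for a limma adjusted p under 0.05 and a black line for the median of the list. The transcriptional targets have medians of 0.80 and 0.62, while Rasa1, Pik3r1, Pik3ca and Kitl lie below 0 at both times and pass the test at 60 min.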

How the data were processed

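The deposited table holds 1 linear intensity per probe set and array for 9 arrays, and how the authors summarised it is not given in the sources used here. Its arrays' means, trimmed by 2% at each end, differed by less than 1.1 times, so the deposited intensities were used without further scaling. Gene symbols came from the platform annotation, and the Entrez identifiers of all 52 member probe sets matched the RefSeq table of GRCm38.p6, with 0 symbols changed. Array data name no build, so coordinates are given for promoters only.

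Intensities were converted to log2(intensity + 11.8), the 20th percentile of all values. Probe sets with at least 3 of 9 arrays above the 40th percentile (44.69) were tested, without 66 control probe sets. The means of the 3 times were estimated in a single limma fit (version 3.58.1, R 4.3.3; lmFit, then eBayes with a variance trend), and p-values were adjusted over 7884 probe sets. With 3 arrays against 3, an exact permutation test cannot give a p under 0.1. The fit was tested on simulated data for 60 against 0 min. It recovered 18.5% of log2 changes of 0.5, 66.1% of changes of 1 and 95% of changes of 2, so small changes can be missed. Of its calls 5.33% were false. The number of arrays limits the precision. Every member was accounted for, and array values were given for members past the threshold and 2 others per role with the lowest F p, and for Pdgfrb in addition. Members, lists and rules were chosen with earlier results of these data known. Plots used Python 3.11.15 and matplotlib 3.10.9.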

Additional observations from a re-analysis of the deposited data

How the results depend on the processing

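The calls of Fgf7 and Angpt1 at 60 min remained with either other added constant, without a filter, under both other scalings and without a variance trend. The count of members changed at 60 against 0 min was 2, and 0 to 3 with 1 array left out (0.977% to 20.1% of all probe sets). It was 3 without a filter, where Kdr was added at 0.961 (limma adjusted p = 0.0469, 5.25% of all). At 30 against 0 min the count was 0 and became 1 without a variance trend (0.507% of all probe sets). That 1 was Fgfr2 on 162171_f_at, tested only because its arrays at 30 min were high. The count was 4 in a fit of the 2 groups alone (4.93% of all probe sets), and 0 to 4 with 1 array left out (0.203% to 7.06%). At 60 against 30 min it was 0, and 0 to 1. Over the 3 times it was 2, became 1 without a filter (1.27% of all probe sets), and ranged from 0 to 4 with 1 array left out (0.228% to 8.36%). Over the alternatives the calls among all tested probe sets numbered 16 to 557 at 30 min, against 74, 77 to 1584 at 60 min, against 1031, 0 to 5 for 60 against 30 min, against 2, and 18 to 834 over the 3 times, against 366. With the replicate letter as a replicate block the members changed were 3 at 30 min, 3 at 60 min, 0 between them and 4 over the 3 times, where 3.29%, 18.3%, 0.0127% and 10.6% of all probe sets passed. The deviations of same-lettered arrays at 30 and 60 min correlated at 0.304 for a, 0.251 for b and 0.0224 for c. In pairs with 0 min the correlations lay between -0.128 and 0.0776. The main fit was set without a block, and these values do not settle whether the letters stand for pairs. Other scalings moved the median change of all probe sets at 60 min from 0.03 to at most 0.10, and that of the members from -0.01 to 0.07.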
